A study of Mus musculus with 3 samples.

Results

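The genes described here are 10 genes of the endoplasmic reticulum (ER) stress response, also called the unfolded protein response, out of 31053 genes counted. The counts come from singly sorted mouse retinal cells that the labels call cones. They were chosen by symbol for their place in the pathway. Atf6, Eif2ak3 (which encodes PERK) and Ern1 (which encodes IRE1) are the sensors. Xbp1, Atf4 and Ddit3 (which encodes CHOP) are transcription factors of the response. Hspa5 (which encodes the chaperone BiP), Herpud1 and Creld2 are target genes, and Vcp encodes the segregase that pulls misfolded proteins out of the ER membrane. All 10 had a count in at least 1 library.

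Retinas of 3 mouse lines were dissociated with papain, and GFP-positive cells, stained with a dye for dead cells, were sorted singly into 1 plate per line. The lines are Wildtype, Cnga3-/-, which lacks a subunit of the cone cyclic nucleotide-gated channel, and Pde6ccpfl1, a mutant allele of the cone phosphodiesterase. The labels give postnatal day 12 for all 3 lines. They name the wildtype library Chrnb4-GFP and the others Cnga3-GFP and Pde6c-GFP. The driver of GFP in the mutant lines and the number of mice behind a plate are not given in the sources used here. With 1 library per genotype there is no replicate, so no difference between genotypes was tested, and genotype and plate cannot be told apart.

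Proteins fold in the ER, and when unfolded proteins build up there, each of the 3 sensors starts its own signal. IRE1 splices the Xbp1 transcript, PERK phosphorylates a translation factor so that ATF4 protein is made, and ATF6 is cut free to act as a transcription factor itself. The targets raise folding capacity (BiP, CRELD2) and the degradation of misfolded ER proteins (HERPUD1, with VCP), and prolonged signalling raises CHOP, which is tied to cell death. Photoreceptors make large amounts of opsin in the ER, and loss of ATF6 is, like loss of CNGA3 or PDE6C, a known cause of human cone disease.

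The sensors act on the targets through short promoter elements, so the promoters of the 3 target genes are shown, each as the 250 bases before the RefSeq start (build GRCm38.p6). Capitals mark matches to the ER stress response element ERSE (CCAAT and CCACG with 9 bases between) in Hspa5 and Creld2, and to ERSE-II (ATTGG and CCACG with 1 base between) and the amino acid response element CARE (TGATGNAA), which ATF4 binds, in Herpud1. N is any base, and matches were sought on both strands.
Hspa5, chr2:34771840-34772089, plus strand: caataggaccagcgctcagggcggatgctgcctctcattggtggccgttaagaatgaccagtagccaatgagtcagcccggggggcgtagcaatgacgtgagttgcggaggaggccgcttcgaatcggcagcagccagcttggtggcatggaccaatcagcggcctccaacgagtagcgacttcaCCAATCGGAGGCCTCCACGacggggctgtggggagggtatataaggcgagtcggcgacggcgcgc
Creld2, chr15:88819396-88819645, plus strand: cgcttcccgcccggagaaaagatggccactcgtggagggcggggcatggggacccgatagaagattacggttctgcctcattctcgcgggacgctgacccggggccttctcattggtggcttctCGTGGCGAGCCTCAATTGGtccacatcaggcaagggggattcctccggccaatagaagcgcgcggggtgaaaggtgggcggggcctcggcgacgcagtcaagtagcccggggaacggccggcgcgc
Herpud1, chr8:94386179-94386428, plus strand: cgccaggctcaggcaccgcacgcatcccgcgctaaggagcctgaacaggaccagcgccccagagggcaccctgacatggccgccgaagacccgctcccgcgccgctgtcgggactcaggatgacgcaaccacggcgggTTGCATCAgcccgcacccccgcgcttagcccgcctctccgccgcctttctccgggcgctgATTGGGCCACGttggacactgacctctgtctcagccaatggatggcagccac
The Hspa5 match to ERSE lay on the gene's strand, 65 to 47 bases before the start. The Creld2 match lay on the other strand, 126 to 108 bases before the start. In Herpud1, ERSE-II lay 52 to 42 bases before the start, and CARE lay on the other strand, 112 to 105 bases before it. RefSeq promoters were matched for 9 of the 10 genes, all but Atf6. Among 32851 promoter windows of the same length, ERSE was found in 37 (0.113%), ERSE-II in 10 (0.0304%) and CARE in 1134 (3.45%). The core of the unfolded protein response element (TGACGTGG) was found in 185 windows (0.563%), among the 9 genes only in Vcp, 114 to 107 bases before the start. A match is a description of letters and shows no binding.

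After wells with fewer than 500 genes or more than 30% mitochondrial counts were left out, 183 of 208 wells remained: 52 wildtype, 70 Cnga3-/- and 61 Pde6ccpfl1. They held 273080, 335499 and 295011 counts, with medians of 4895, 4056.5 and 3796 counts per well. Sums of counts were scaled to counts per 1000000 (CPM), and 95% intervals are exact and cover counting error only. The well names carry the tags P11, P08 and P10 for the 3 plates in the same order. The meaning of these tags is not stated, and if they are ages, age and genotype cannot be told apart. Wells at the same position on different plates shared part of their profile, although no column name was shared. Across 5997 genes, the Pearson correlation of centred log2 values had a median of 0.335 to 0.363 between same-position wells and of -0.0075 to -0.0059 between wells at different positions. For every well whose position was kept on both plates (50, 43 and 61 positions in the 3 pairs of plates), the best match on the other plate was the well at the same position. What links the positions was not tested, so wells are not counted here as independent cells. Results are therefore also given at the 43 positions kept on all 3 plates.

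**Figure D1:**
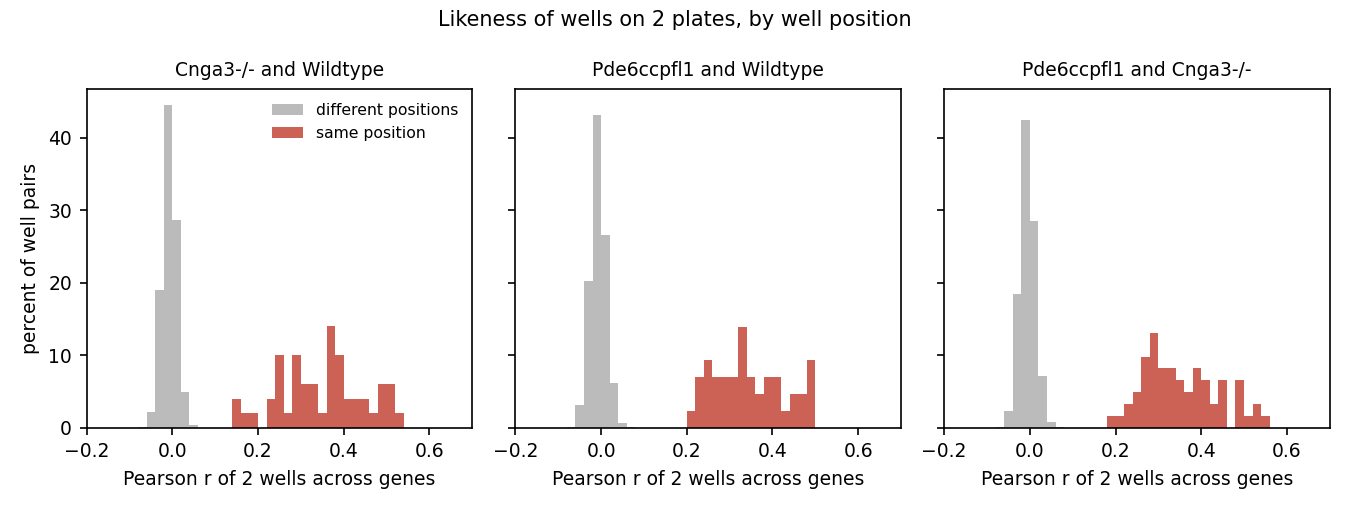
Histograms of the Pearson correlation across genes (x axis, no unit) between a well on one plate and a well on another, as the percent of well pairs of each kind (y axis), for the 3 pairs of plates. Same-position pairs (red) lie between 0.158 and 0.547, and pairs at different positions (grey) reach at most 0.0645.

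The labels call all cells cones, and in the wildtype library the cone markers were near the level of genes not used in retina. The 12 cone markers summed to 54 counts in the wildtype wells, 260 in the Cnga3-/- wells and 221 in the Pde6ccpfl1 wells. Per kilobase of exon that was 4.58, 18.0 and 17.4 CPM, while olfactory receptor genes, taken as that level, stood at 4.50, 3.61 and 4.16. Opn1sw, Gnat2, Gngt2, Pde6c and Cngb3 were at 0 in the wildtype library. At least 3 cone markers were counted in 2 wildtype, 28 Cnga3-/- and 33 Pde6ccpfl1 wells. The 12 rod markers were at 5.97, 12.0 and 9.80 CPM per kilobase, with none at 0 in any library. Of the other cell types looked for, horizontal cell markers (9.63, 6.95 and 8.06) and astrocyte markers (5.16, 5.34 and 8.46) included the highest value in each library. The part that these markers have in the comparisons with the wildtype library was not tested. The comparison of the 2 mutant libraries uses no wells of that library. Same-position wells nevertheless shared part of their profile on every pair of plates, and what links them was not tested. Cnga3 itself had 22 counts in the wildtype library, 13 in Cnga3-/- and 3 in Pde6ccpfl1, and Pde6c had 0, 5 and 2. The altered part of each gene is not given in the labels, so these counts check neither label.

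Creld2 dominated the group. It held 882 of the 1241 counts of the 10 genes (71.1%) and ranked 93 among all genes by total count. Ern1 (99 counts), Herpud1 (97), Vcp (77) and Eif2ak3 (43) followed. Atf6 (14), Hspa5 (11), Atf4 (8), Xbp1 (6) and Ddit3 (4) were almost uncounted. Thus 1 folding target was counted in most wells, while the sensors, the transcription factors and the principal chaperone were each counted in a minority of them.

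Genes were set beside each other as CPM per kilobase of exon, a scale that assumes reads along the whole exon length. Whether reads lie so was not tested. On this scale the order of levels in the wildtype library was Creld2 at 871, Herpud1 at 29.8, Ern1 at 15.7, Vcp at 12.8, Hspa5 at 3.46, Eif2ak3 at 2.43, Xbp1 at 2.25, Atf6 at 1.98, Atf4 at 1.55 and Ddit3 at 0. Creld2 stood clear of all others in every library. The intervals of Herpud1 (18.0 to 46.6) and Ern1 (10.9 to 21.8) overlapped in that library, as did those of Ern1 and Vcp (7.48 to 20.5) and of Vcp and Hspa5 (0.944 to 8.87). The intervals of the 6 lowest genes all overlapped each other. In both mutant libraries Herpud1 was again the next after Creld2, at 52.4 in Cnga3-/- and 53.8 in Pde6ccpfl1, and its interval lay above those of Ern1 and Vcp. There Vcp (20.3 and 18.9), Ern1 (9.85 and 15.3) and Eif2ak3 (9.40 and 11.3) came next, and the intervals of Ern1 and Eif2ak3 overlapped in both. Atf6, Xbp1 and Hspa5 were below the olfactory receptor level of the same library in all 3 libraries. On this scale and at this depth their levels were thus not detectable above that background.

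**Figure D2:**
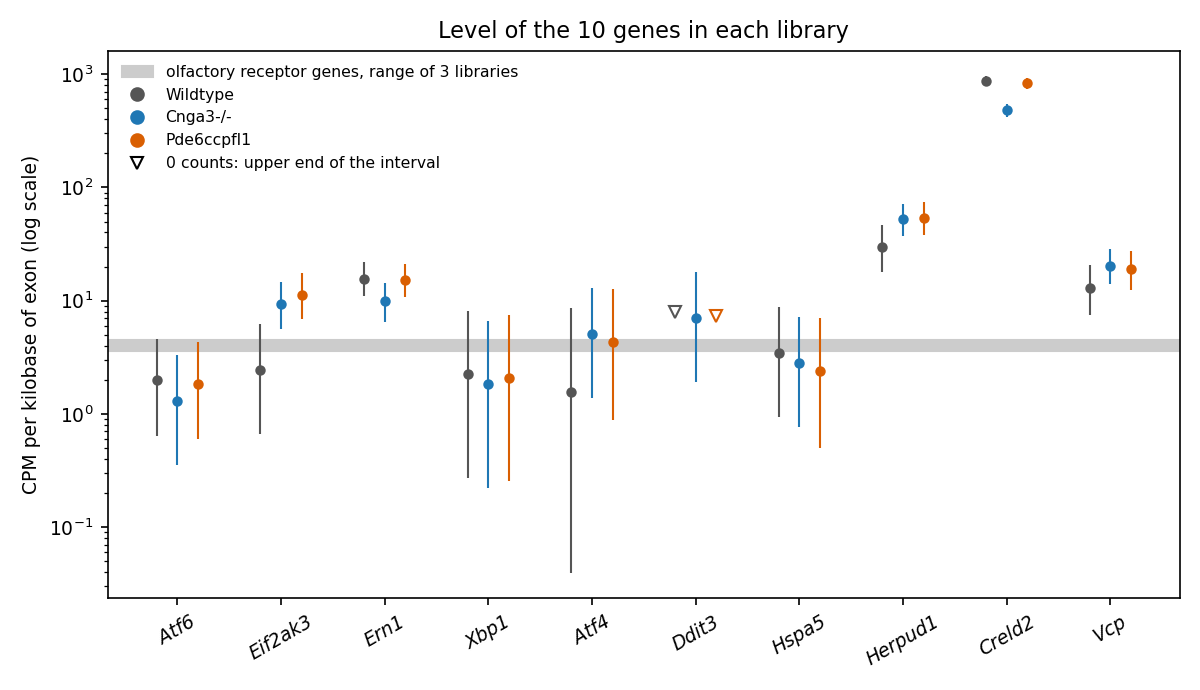
CPM per kilobase of exon (y axis, log scale) for the 10 genes (x axis) in the 3 libraries, with 95% counting intervals as bars and the range of the olfactory receptor level as the grey band. Creld2 lies between 482 and 871, while Atf6, Xbp1 and Hspa5 lie under the band in all 3 libraries.

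The 3 sensors were counted at different levels. Atf6 encodes the sensor that is itself a membrane-bound transcription factor, and it had 5 counts in the wildtype library, 4 in Cnga3-/- and 5 in Pde6ccpfl1, in 4, 2 and 4 wells. The ratio of Cnga3-/- to wildtype was 0.651, with an interval of 0.129 to 3.03 that does not fix a direction.

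Eif2ak3, the PERK sensor kinase, had 4 counts in the wildtype library, 19 in Cnga3-/- and 20 in Pde6ccpfl1. These are 14.6, 56.6 and 67.8 CPM, and the gene was counted in 4 of 52, 9 of 70 and 11 of 61 wells. Both mutant libraries were above the wildtype library and level with each other. Cnga3-/- was 3.87-fold above wildtype (interval 1.28 to 15.6), Pde6ccpfl1 was 4.63-fold above it (1.55 to 18.6), and the mutants differed by 1.20-fold (0.606 to 2.37). The 2 ratios to wildtype share the same 4 wildtype counts, which are 2.43 CPM per kilobase, under the olfactory receptor level of 4.50 in that library. Much of the mutant signal came from single wells. Position H04 held 6 of the 19 counts in Cnga3-/- and 7 of the 20 in Pde6ccpfl1, and the wildtype table has no well at H04. In Cnga3-/- position H10 also held 6 counts. At the 43 shared positions the counts were 4, 11 and 10. The ratios there were 2.76 (0.818 to 11.9) and 2.65 (0.764 to 11.6), so both intervals then included equality. Without H04, but with H10 still included, they were 2.69 (0.832 to 11.3) and 3.07 (0.949 to 12.9). Gm43292 overlaps 485 exon bases of Eif2ak3 on the opposite strand, and whether the counting used strand is not given in the sources used here.

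Ern1, the IRE1 sensor that splices Xbp1, had 35 counts in the wildtype library, 27 in Cnga3-/- and 37 in Pde6ccpfl1, or 128, 80.5 and 125 CPM. It was counted in 16, 11 and 18 wells. The Cnga3-/- library was the lowest, but the ratio to wildtype was 0.628 with an interval of 0.366 to 1.07, and Pde6ccpfl1 was at 0.979 of wildtype (0.600 to 1.60). The well at position C02 held 17, 14 and 16 of these counts, which is 48.6%, 51.9% and 43.2% of the gene's total in each library. Without C02 the counts were 18, 13 and 21, with Cnga3-/- again the lowest.

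The 3 transcription factor genes gave almost no signal in any library. Xbp1, whose spliced transcript makes the IRE1 arm's transcription factor, had 2 counts in each library. Atf4, the transcription factor of the PERK arm, had 1, 4 and 3 counts. Ddit3, the CHOP gene that prolonged stress raises, had 0, 4 and 0 counts, with the 4 Cnga3-/- counts in 4 separate wells. Taken as 3 wells of the total, a count of 0 allows a Ddit3 count in up to 5.77% of the 52 wildtype wells and 4.92% of the 61 Pde6ccpfl1 wells, and the upper ends of the exact intervals are 6.85% and 5.87%. With the floor of 3 counts set for a library at 0, the ratio of Cnga3-/- to wildtype was 1.09. The exact Cnga3-/- interval of 3.25 to 30.5 CPM overlapped that of wildtype, which reaches 13.5 CPM. No difference is shown at this depth. Ddit3 also shares 68 exon bases with Mars on the opposite strand, which had 8, 11 and 17 counts. No fold is given for Xbp1, since both libraries of every comparison were at or under the floor. At least 1 of these 3 genes was counted in 3 wildtype, 9 Cnga3-/- and 5 Pde6ccpfl1 wells. A sensor was counted in the same well in 3, 2 and 2 of them.

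Among the targets, Hspa5 encodes BiP, the chief ER chaperone, which also holds the sensors inactive. It had 4, 4 and 3 counts, in 3 wells of each library, or 14.6, 11.9 and 10.2 CPM. The Cnga3-/- to wildtype ratio was 0.814 (0.152 to 4.37). Hspa5 carries an ERSE like Creld2, as the sequences above show, but on the per-kilobase scale it was at 3.46, 2.82 and 2.40 against 871, 482 and 834 for Creld2.

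Herpud1, a membrane protein of the ER-associated degradation complex, had 19 counts in the wildtype library, 41 in Cnga3-/- and 37 in Pde6ccpfl1. These are 69.6, 122 and 125 CPM in 10, 16 and 14 wells. Both mutant libraries were higher than wildtype, by 1.76-fold (0.997 to 3.20) and 1.80-fold (1.01 to 3.32), and the mutants were level with each other at 1.03 (0.640 to 1.64). Here too 1 position, F05, carried much of the signal, with 6, 20 and 21 counts. Without it the counts were 13, 21 and 16, and the ratios to wildtype were 1.32 (0.631 to 2.87) and 1.15 (0.520 to 2.60). With wells thinned to 1400 counts, the log2 ratio of Cnga3-/- to wildtype was -0.44 in place of 0.81. Herpud1 was then counted in only 4 of 48 wildtype and 3 of 65 Cnga3-/- wells, too few to give a direction. In wells with at least 3 cone markers the log2 ratio of Cnga3-/- to wildtype was -0.14, but only 2 wildtype wells remain there. With a count of 0 set to the floor of 3, the value in those wells gives no direction. Without the 5 deepest wells of each library, the log2 ratio of Pde6ccpfl1 to wildtype was -0.18 in place of 0.85. That setting leaves out F05 in Pde6ccpfl1, with 21 of its 37 counts, but not in wildtype.

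Creld2, a disulfide isomerase-like protein of the ER that helps client proteins fold, was lower in Cnga3-/- than in both other libraries. It had 325 counts in the wildtype library, 221 in Cnga3-/- and 336 in Pde6ccpfl1. These are 1190 CPM (1064 to 1327), 659 CPM (575 to 752) and 1139 CPM (1020 to 1267), so the Cnga3-/- interval lay below both others. Cnga3-/- was 1.81-fold below wildtype (interval 1.52 to 2.15), a log2 ratio of -0.85 beside a median of -0.32 over all compared genes. Pde6ccpfl1 was at 0.957 of wildtype (0.819 to 1.12) and 1.73-fold above Cnga3-/- (1.45 to 2.06), a log2 ratio of 0.79 beside a median of 0.07.

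The Creld2 difference was of much the same size at matched positions. At the 43 shared positions the counts were 301, 179 and 288, or 1219, 728 and 1236 CPM. Cnga3-/- was then 1.67-fold below wildtype, and Pde6ccpfl1 was 1.70-fold above Cnga3-/- (1.40 to 2.06). Position by position, Cnga3-/- had the lower Creld2 CPM in 35 of 43 positions and the higher in 8 against wildtype. Pde6ccpfl1 was higher than wildtype in 22 and lower in 21, and it was higher than Cnga3-/- in 32, lower in 10 and equal in 1. These counts of positions describe 3 libraries and are no test.

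Creld2 was spread over most wells but unevenly. It was counted in 50 of 52 wildtype wells (96.2%), 58 of 70 Cnga3-/- wells (82.9%) and 53 of 61 Pde6ccpfl1 wells (86.9%). With each well thinned to 1400 counts, and shallower wells left out, the shares were 35 of 48 (72.9%, interval 58.2 to 84.7), 29 of 65 (44.6%, 32.3 to 57.5) and 35 of 54 (64.8%, 50.6 to 77.3). The thinned order is that of the CPM, with Cnga3-/- the lowest. The median well had 4, 2 and 3 Creld2 counts, and 6, 1 and 6 wells had at least 10. The well at position E12 held by far the most on each plate, with 75, 61 and 74 counts out of 2566, 2399 and 3266. That 1 well gave 23.1%, 27.6% and 22.0% of the Creld2 counts. Without E12, Creld2 stood at 924, 480 and 898 CPM, and Cnga3-/- was at 0.520 of wildtype (0.424 to 0.636). Within a library, the count in a well followed its depth, with a Spearman correlation of 0.765 over 52 wells, 0.675 over 70 and 0.780 over 61. These wells share a library, and the values are a description.

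**Figure D3:**
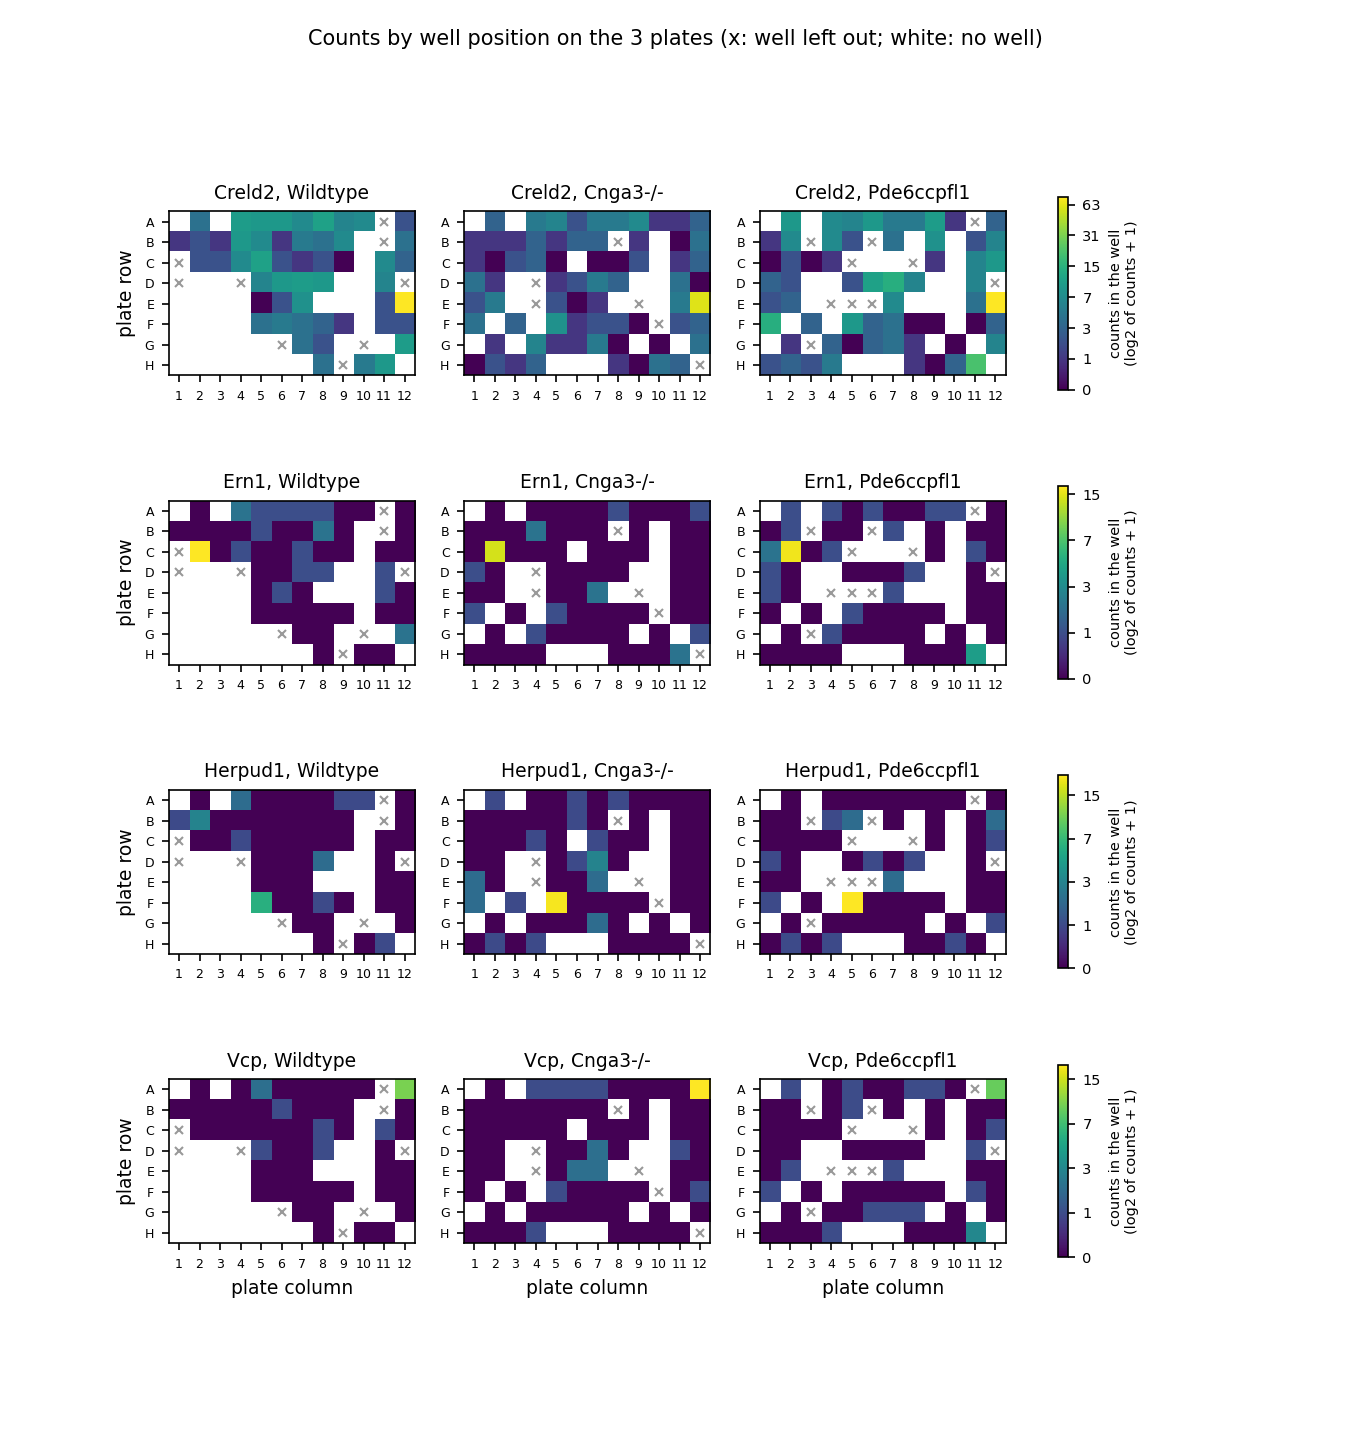
Counts of Creld2, Ern1, Herpud1 and Vcp in each well (color, log2 of counts + 1) by plate row (y axis) and plate column (x axis) on the 3 plates, with a cross for a well left out and white where the table has no well. Creld2 is counted across each plate with its highest value at E12 (75, 61 and 74 counts), and each of the other 3 genes also has its highest well at the same position on all 3 plates.

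Vcp had 17 counts in the wildtype library, 33 in Cnga3-/- and 27 in Pde6ccpfl1, or 62.3, 98.4 and 91.5 CPM, in 7, 12 and 17 wells. The ratios to wildtype were 1.58 (0.855 to 3.02) and 1.47 (0.773 to 2.88), and both intervals include equality. Position A12 held 10, 19 and 9 of these counts. At the 43 shared positions the ratio of Cnga3-/- to wildtype was 2.01 (1.05 to 4.02), and without A12 it was 1.63 (0.616 to 4.78). That of Pde6ccpfl1 to wildtype was 2.38 without A12 (0.949 to 6.75). On the log2 scale, Cnga3-/- over wildtype was 2.09 in wells with at least 1000 genes and at most 15% mitochondrial counts. As a mean of CPM over wells it was -0.24, so its direction is not settled. In wells with at least 3 cone markers it was -1.83, but only 2 wildtype wells remain there. With a count of 0 set to the floor of 3, the value in those wells gives no direction. Vcp shares 352 exon bases with 1700022I11Rik on the opposite strand, which had 1, 1 and 0 counts.

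A top well shared by plates is not particular to these genes. Of 1734 genes with at least 5 counts in their highest well on each plate, 1551 (89.4%) had that well at the same position on all 3 plates, over the 43 shared positions.

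**Figure D4:**
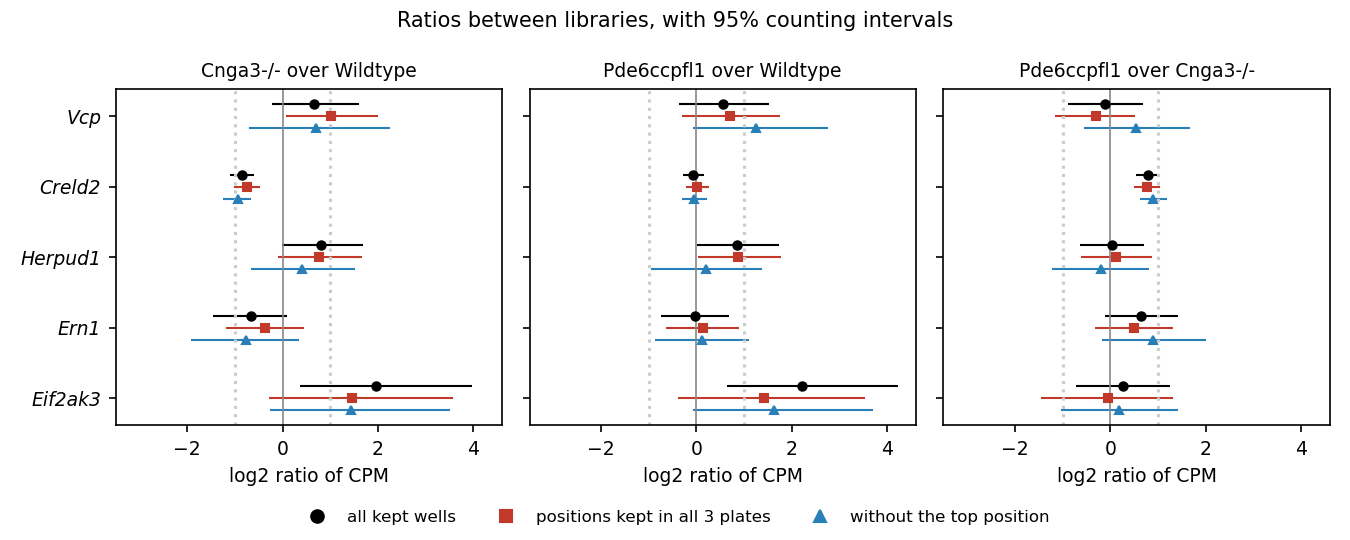
Log2 ratio of CPM between 2 libraries (x axis) for 5 genes (y axis), over all kept wells (black), at the 43 positions kept on all 3 plates (red) and without the gene's top position (blue), with 95% counting intervals and dotted lines at 2-fold. Creld2 in Cnga3-/- over wildtype lies below 0 in all 3 (-0.85, -0.74 and -0.94), while the Eif2ak3 intervals in that comparison reach below 0 in the red and blue sets.

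Genes were compared between libraries where the 2 libraries held at least 50 counts and the gene was counted in at least 20% of the wells of one. Of the 10 genes, Creld2, Herpud1 and Ern1 met this against wildtype, and these and Vcp met it between the mutants. None of the 3 was at least 2-fold apart in Cnga3-/- over wildtype, where 11.2% of 1723 genes were at least 2-fold higher and 11.7% lower. None was in Pde6ccpfl1 over wildtype, where 10.2% of 1600 genes were higher and 15.2% lower. None of the 4 was in Pde6ccpfl1 over Cnga3-/-, where 6.44% of 1693 genes were higher and 9.33% lower. The median log2 ratios of the compared members were -0.67, -0.03 and 0.34, and those of all compared genes were -0.32, -0.16 and 0.07. An interval of the ratio that leaves out 1 was common. In Cnga3-/- over wildtype it lay below 1 for Creld2 and for 34.0% of the 1723 genes, and above 1 for none of the 3 members and 16.1% of the genes. Of those genes, 16.7% had a lower ratio than Creld2. In Pde6ccpfl1 over wildtype it lay above 1 for Herpud1 and for 15.6% of the 1600 genes, and below 1 for none of the 3 members and 29.6% of the genes. Between the mutants it lay above 1 for Creld2 and for 22.2% of the 1693 genes, and below 1 for none of the 4 members and 20.1% of the genes. Of those genes, 88.4% had a lower ratio than Creld2. Eif2ak3, whose interval lay above 1 in both mutants over wildtype, had too few counts to be compared with these shares.

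Summed, the 9 genes other than Creld2 had 87, 138 and 134 counts, or 319, 411 and 454 CPM. Pde6ccpfl1 was 1.43-fold above wildtype (1.08 to 1.89), Cnga3-/- was 1.29-fold above it (0.980 to 1.71), and Pde6ccpfl1 was at 1.10 of Cnga3-/- (0.864 to 1.41). Without the 5 deepest wells of each library the log2 ratio of Pde6ccpfl1 to wildtype was 0.26 in place of 0.51. As a mean of CPM over wells, the log2 ratio of Cnga3-/- to wildtype was -0.072 in place of 0.37. In CPM of summed counts over all kept wells, the 9 genes together were lowest in wildtype, whereas Creld2 was lowest in Cnga3-/-. Creld2 accordingly made up 78.9%, 61.6% and 71.5% of the counts of the group. A well had a median of 2, 1.5 and 2 of the 10 genes counted and at most 4, 4 and 5. Creld2 was the only one counted in 17, 23 and 12 wells, and none was counted in 2, 9 and 6. At least 3 of the genes were counted in 12, 20 and 22 wells.

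The wider pathway was more thinly counted than the 10 genes. Of 72 further genes in the table, on 4 lists, 4 could be compared in any comparison: Ube2g2, Nfya, Nfyb and Bbc3. In Cnga3-/- over wildtype 3 were compared, with 0 at least 2-fold higher and 1 lower, beside 11.2% and 11.7% of all genes. In Pde6ccpfl1 over wildtype 4 were compared, with 0 higher and 1 lower, beside 10.2% and 15.2%. In Pde6ccpfl1 over Cnga3-/- 2 were compared, with 1 higher and 0 lower, beside 6.44% and 9.33%.

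The 19 ER chaperone and folding genes summed to 71, 86 and 75 counts, or 260, 256 and 254 CPM, and Pdia6, a disulfide isomerase, led with 48 counts in all. The ratios of this sum were 0.986 (0.712 to 1.37) for Cnga3-/- over wildtype and 0.978 (0.697 to 1.37) for Pde6ccpfl1 over wildtype. The 3 sums were close to each other, and the width of the intervals leaves differences of that size undetectable.

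The 18 genes of ER-associated degradation in the table had 97, 68 and 60 counts, or 355, 203 and 203 CPM. The sum in both mutants was at 0.571 (0.412 to 0.786) and 0.573 (0.408 to 0.798) of wildtype. Ube2g2, a ubiquitin-conjugating enzyme of that pathway, gave most of this, with 55, 20 and 26 counts. It was 3.38-fold lower in Cnga3-/- than in wildtype and 2.29-fold lower in Pde6ccpfl1, log2 ratios of -1.76 (-2.57 to -0.99) and -1.19 (-1.92 to -0.49). Without Ube2g2 the sums were at 0.930 (0.602 to 1.44) and 0.749 (0.462 to 1.21) of wildtype. At the 43 shared positions Ube2g2 was 3.24-fold and 2.13-fold lower. Without its top position, F09, it was at 0.308 and 0.318 of wildtype.

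The 20 genes of the sensor arms and their regulators had 150, 144 and 165 counts. Nfya and Nfyb encode subunits of NF-Y, the factor that binds the CCAAT part of ERSE. Nfya had 51, 43 and 54 counts. Nfyb had 32, 12 and 40 counts and was 3.79-fold higher in Pde6ccpfl1 than in Cnga3-/-, a log2 ratio of 1.92 (0.96 to 2.99). Its Cnga3-/- to wildtype pair had too few counts to be compared. Nfyc, the gene of the remaining subunit, had 7, 18 and 10 counts, highest where Nfyb was lowest, and was compared in no pair. The 17 targets of ATF4 and CHOP had 98, 111 and 85 counts, at 0.922 of wildtype in Cnga3-/- (0.696 to 1.22) and 0.803 in Pde6ccpfl1 (0.593 to 1.08). Bbc3, a cell death gene that CHOP is known to raise, had 29, 32 and 30 counts. Position D07 held 11, 21 and 17 of them, and without it Cnga3-/- was at 0.500 of wildtype (0.213 to 1.12) in place of 0.898.

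Creld2 was then set against 232 genes counted in at least 50% of wells of every library, by the mean over the 3 libraries of the within-library Spearman correlation of CPM per well. The 5 most alike were Tob2 (0.252), Rpa2 (0.240), Cldn12 (0.231), 7420701I03Rik (0.229) and Prkcz (0.224). The median of the 232 was 0.0463 and the 95th percentile 0.179, so in counts this sparse even the highest values are weak. Alg12, the gene next to Creld2, begins 327 bases away on the opposite strand and had 2 counts in each library.

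In GENCODE M21 coordinates (GRCm38), Creld2 lies on chromosome 15 from 88819646 to 88826683 on the plus strand and Herpud1 on chromosome 8 from 94386438 to 94395377 on the plus strand. Ern1 lies on chromosome 11 from 106394650 to 106487852 on the minus strand and Eif2ak3 on chromosome 6 from 70844515 to 70905245 on the plus strand. Counts were made per gene, so exon and intron positions of the reads are not resolved.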

How the data were processed

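Deposited values are raw counts per gene and well in 1 table, and the authors' counts came from featureCounts per the submitters' processing notes, which give no version. Those notes name the build GRCh38, a human build, whereas 30464 symbols (98.1%) are in the mouse annotation GENCODE M21, so coordinates were taken from GENCODE M21 by symbol. The aligner, strand setting and handling of molecular identifiers are not given in the sources used here, so counts may not be independent molecules. All columns of wells were matched to a library by name.

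Counts of kept wells (at least 500 genes, at most 30% mitochondrial counts) were summed per library, in Python 3.11.15 with pandas 2.3.3, and scaled to CPM. Each of the 3 libraries held 273080 to 335499 counts. Levels have exact Poisson intervals, shares exact Clopper-Pearson intervals, and ratios exact conditional intervals, all at 95%. For ratios a count of 0 was replaced by 3, the floor, and no fold is given where both libraries are at or under it. A difference of at least 2-fold is a description of size, not a test. The script was tested on simulated data. Alternatives covered well filters, scaling (edgeR 4.0.16 for TMM), thinning, gene filters, single wells and shared positions, the last chosen after seeing the data.

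The 10 genes, the wider lists and the markers were chosen with earlier results of these data known. All 10 are named, of the wider lists every compared gene that was at least 2-fold apart (Nfya and Bbc3, list leaders and highest wells were named after their values were seen), and for Creld2 the 5 genes most like it. No doublet caller was run on the sorted wells.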

Additional observations from a re-analysis of the deposited data

Results flagged for a closer look

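Creld2 was also counted in wells that the comparisons leave out. The 25 wells with too few genes or too many mitochondrial counts held 10 Creld2 counts, above the 3 that a count of 0 allows: 7 in 5 of 9 wildtype wells, 1 in 1 of 6 Cnga3-/- wells and 2 in 2 of 10 Pde6ccpfl1 wells. On the totals of those wells, 7174, 4749 and 8245 counts, this is 976, 211 and 243 CPM.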

How the results depend on the processing

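No paired analysis was possible because there is 1 library per genotype. For Creld2 and for the sum of the other 9 genes, 64 alternative values stayed within the counting interval of the reported value and 8 moved outside it. For the other genes one by one, 199 stayed and 16 moved, and 34 of these 215 changed sign, 9 of them outside the interval. The 215 values include some where a library at 0 was set to the floor of 3. Of the 72 for Creld2 and the sum, 8 changed sign, none of them for Creld2 in Cnga3-/- over wildtype or between the mutants. Wells with at least 1000 genes and at most 15% mitochondrial counts gave other Creld2 log2 ratios. They were -1.28 for Cnga3-/- over wildtype and 1.25 for Pde6ccpfl1 over Cnga3-/-. In each, 1 of the 3 compared members was at least 2-fold apart. Of all 1570 genes compared in the former, 11.8% were at least 2-fold higher and 12.2% lower. Of the 1567 in the latter, 7.98% were higher and 11.4% lower. As a mean of CPM over wells, Creld2 in Pde6ccpfl1 over wildtype was -0.29 and the sum of the others in Cnga3-/- over wildtype -0.072. In wells with at least 3 cone markers, of which wildtype had 2, the sum was 2.63 and 2.89 over wildtype. No interval was made for these values, and 2 wells leave the wildtype level of the sum poorly known. Creld2 there was 0.39 in Pde6ccpfl1 over wildtype and 1.36 over Cnga3-/-. In the latter 1 of 2 compared members was at least 2-fold apart, beside 24.1% of 893 genes higher and 16.9% lower. In these wells Herpud1 was at -0.14 in Cnga3-/- over wildtype and at -0.53 in Pde6ccpfl1 over wildtype. With 2 wildtype wells, and a count of 0 set to the floor of 3, neither Herpud1 value gives a direction. Herpud1 in Pde6ccpfl1 over wildtype was -0.18 without the 5 deepest wells of each library, which include its top position F05 in Pde6ccpfl1 but not in wildtype. With genes of at least 10 counts, 1 member (Eif2ak3) was at least 2-fold higher in each mutant over wildtype, beside 16.1% of 7739 genes for Cnga3-/- and 15.5% of 7289 for Pde6ccpfl1. The cause of these shifts was not tested.

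Counts of all genes at least 2-fold higher and lower, which were 193 and 202, 163 and 244, and 109 and 158 in the 3 comparisons, became 1248 and 1166, 1130 and 1238, and 795 and 1111 with the filter at 10 counts. They became 35 and 35, 35 and 39, and 28 and 21 with it at 200, and 50 and 44, 41 and 35, and 27 and 27 after thinning, since other numbers of genes are then compared. At the shared positions those over wildtype became 78 and 88, and 80 and 160. In wells with cone markers they became 117 and 49 for Cnga3-/- over wildtype, with 53 lower for Pde6ccpfl1 over wildtype and 215 higher between the mutants. Median-of-ratios scaling moved the median log2 ratio of all genes by 0.14 in Cnga3-/- over wildtype, leaving out the 20 most abundant and mitochondrial genes by 0.11, and TMM by 0.10 in Pde6ccpfl1 over wildtype. For 5 genes (Atf6, Xbp1, Atf4, Ddit3, Hspa5) each library held at most 5 counts, so changes of several-fold in them would not be detectable.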
